A study of Mus musculus with 12 samples.

Results

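The genes described here are 10 genes of the epicardium and mesothelium, the thin cell layer that covers the heart and lines the body cavities. They were chosen by name as a measure of surface tissue in each left ventricle sample, and all 10 were found by Ensembl gene ID among the 38293 genes of the count table and among the 14770 genes that passed a filter on low counts and were tested. They are Msln, Upk3b, Upk1b and Lrrn4, which encode membrane proteins of the surface cells, the keratin genes Krt8, Krt18 and Krt19, the transcription factor genes Wt1 and Tbx18, and Aldh1a2, whose enzyme makes retinoic acid. Polyadenylated RNA was sequenced from left ventricles of healthy C57BL/6J mice harvested at day 3 after surgery that opened the chest and placed 2 injections of 10 µl in the heart muscle. The 12 libraries form 3 groups of 4. In the antimiR-195 group the injection held Upy-PEG, a hydrogel of poly(ethylene glycol) joined by ureidopyrimidinone groups, loaded with an oligonucleotide against the microRNA miR-195. The Upy-PEG group received the hydrogel with no drug, and the PBS group received phosphate-buffered saline. All 12 hearts thus had the same opening of the chest and needle entry, and no group without injection is among them. Nothing in the labels ties each library to its own animal, so a p here reflects spread among libraries, which may be technical.

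The epicardium is a single sheet of mesothelial cells on the outer face of the heart. In the embryo, epicardial cells marked by Wt1 and Tbx18 lose their epithelial contacts, enter the muscle wall and give rise to fibroblasts and vascular support cells, and retinoic acid made by Aldh1a2 in the epicardium acts on the growing muscle. In the adult the sheet is quiescent and carries epithelial genes such as keratins, uroplakins and mesothelin, and after injury it can switch on fetal genes again. Mesothelin, the product of Msln, is a surface glycoprotein used as a mesothelial marker, and uroplakins 3b and 1b are membrane plaque proteins first described in the bladder lining. Keratin 8 pairs with keratin 18 or keratin 19 to build the filaments of simple epithelia. Of these genes, Wt1, Tbx18 and Aldh1a2 are not restricted to the sheet, since endothelial cells, pericytes and fibroblasts of the adult heart can express 1 or more of them.

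Promoter sequences were available for 6 of the 10 genes, Lrrn4, Upk3b, Aldh1a2, Tbx18, Krt8 and Krt18, in RefSeq on build GRCm38.p6, each spanning 250 bases before and 50 bases after the start. The sequences of Upk3b and Lrrn4 are shown because these genes varied together between libraries, and those of Krt8 and Krt18 because these partner keratins, which lie on the same chromosome, did not. Capitals mark the letters GGAATG or its reverse complement CATTCC, a TEAD factor motif, in Upk3b and Lrrn4, and TATAAA or its reverse complement TTTATA, the TATA box letters, in Krt8.
Upk3b promoter, chr5:136038246-136038545, plus strand: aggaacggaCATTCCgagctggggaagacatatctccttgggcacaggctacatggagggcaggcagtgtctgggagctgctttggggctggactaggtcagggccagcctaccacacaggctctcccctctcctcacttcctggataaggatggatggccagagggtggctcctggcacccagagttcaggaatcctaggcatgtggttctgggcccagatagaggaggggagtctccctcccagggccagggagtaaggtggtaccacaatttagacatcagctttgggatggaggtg
Lrrn4 promoter, chr2:132880813-132881112, minus strand: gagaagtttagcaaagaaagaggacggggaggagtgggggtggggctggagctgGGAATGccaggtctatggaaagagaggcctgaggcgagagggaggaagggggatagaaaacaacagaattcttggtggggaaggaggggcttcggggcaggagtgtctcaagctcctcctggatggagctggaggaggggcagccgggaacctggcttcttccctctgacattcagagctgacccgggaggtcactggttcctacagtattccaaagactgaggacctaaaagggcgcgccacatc
Krt8 promoter, chr15:102004293-102004592, minus strand: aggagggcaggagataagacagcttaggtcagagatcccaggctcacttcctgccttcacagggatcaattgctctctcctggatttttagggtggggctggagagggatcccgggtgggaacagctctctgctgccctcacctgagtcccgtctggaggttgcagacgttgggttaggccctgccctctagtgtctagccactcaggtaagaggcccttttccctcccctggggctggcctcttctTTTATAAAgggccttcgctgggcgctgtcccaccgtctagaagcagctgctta
Krt18 promoter, chr15:102027966-102028265, plus strand: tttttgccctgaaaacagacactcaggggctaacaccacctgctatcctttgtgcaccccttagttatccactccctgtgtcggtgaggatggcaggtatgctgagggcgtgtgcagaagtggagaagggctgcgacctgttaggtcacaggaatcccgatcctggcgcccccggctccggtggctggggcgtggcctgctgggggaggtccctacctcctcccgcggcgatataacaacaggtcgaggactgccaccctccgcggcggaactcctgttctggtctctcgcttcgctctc
The TEAD letters were found once in Upk3b and once in Lrrn4, not in the other 4 promoters, and in 14.7% of the 32851 promoters of the same length searched on both strands. The TATA letters had 2 matches in Krt8, 1 on each strand and overlapping, none in the other 5, and were present in 13.6% of all promoters. The GC box letters GGGCGG, on either strand, were in none of the 6 and in 35.7% of all promoters. These matches describe letters only. The drug of the study is directed at miR-195, whose RefSeq mature sequence is given with its seed, bases 2 to 8, in capitals.
mmu-miR-195a-5p, chr11:70235062-70235082, plus strand: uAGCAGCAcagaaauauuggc
The letters TGCTGCT that pair with this seed were absent from the longest annotated 3′ untranslated region of each of the 10 genes, and present in 3629 of 13331 genes searched the same way, or 27.2%. The regions of the 10 genes ran from 66 bases in Krt18, 103 in Krt19 and 129 in Msln to 2421 in Tbx18. That share was not matched for length, so the absence cannot be set against it directly.

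The libraries held 22.4 to 30.3 × 10⁶ counts on genes. The depth was shallow for these genes, and 4 of the 10 genes had a mean below 1 CPM (counts scaled to library size with TMM factors) over the 12 libraries. Replicates 2 and 3 of the antimiR-195 group stood apart, with slopes of log2 CPM on log2 gene length of -0.229 and -0.135, against -0.042 to 0.122 in the other 10 libraries. The label of left ventricle was set beside marker lists, which cannot tell left from right. The 8 genes listed for ventricular cardiomyocytes summed to 51180 to 81490 CPM in every library. Several of them, Myh6 and Tnnt2 among them, are not restricted to the ventricle, so this sum shows heart muscle only. Of other epithelia, Epcam had 0 to 3 counts in a library, the lung genes Sftpc, Sftpb, Sftpa1, Sftpd and Scgb1a1 had 0 or 1 count, the lung genes Ager and Scgb3a1 had 7 to 28 and 10 to 34 counts, Hopx, which heart muscle also expresses, had 5567 to 12428 counts, and the 8 genes listed for other epithelium summed to 0.127 to 0.995 CPM. The other 4 uroplakin genes, which the bladder lining shares with Upk3b and Upk1b, summed to 0.424 to 1.19 CPM. The 6 atrial cardiomyocyte genes summed to 31.3 to 110 CPM, among them Myl7 at 20 to 559 counts and Sln at 3 to 151 counts, and the part of atrial tissue in the results was not tested. Each of the 10 genes had at least 1 count in all 12 libraries. Of the further surface layer genes, Calb2, a mesothelial marker, had 0 or 1 count in each. Krt7 fell to 0 counts among antimiR-195 libraries and Bnc1 to 0 among Upy-PEG libraries. In bulk tissue, fewer surface cells and less RNA per surface cell cannot be told apart.

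Compared per length, in the deposited RPKM, reads scaled to gene length and library size, Aldh1a2 was the most abundant of the 10 and averaged 9.54 ± 2.91 over the 12 libraries (SD). Tbx18 averaged 1.56 ± 0.438 RPKM and Krt18 1.55 ± 1.44 RPKM. Then came Msln at 0.740 ± 0.483, Wt1 at 0.629 ± 0.160, Krt19 at 0.478 ± 0.326, Upk3b at 0.460 ± 0.312, Upk1b at 0.327 ± 0.245, Krt8 at 0.283 ± 0.159 and Lrrn4 at 0.10 ± 0.0991 RPKM. The lowest Aldh1a2 value, 4.26 RPKM, lay above every value of the other genes apart from 1 library of Krt18 at 5.27 RPKM. All other neighbours in this order had overlapping ranges. In each of these genes the spread between libraries can be given as edgeR's biological coefficient of variation, which was 0.168 in the median of all genes tested. It was 0.467 to 0.686 in Lrrn4, Upk3b, Krt19, Msln, Krt18, Upk1b and Krt8, where the fitted trend at their level was 0.257 to 0.309. Aldh1a2 had 0.248 against a trend of 0.163, whereas Wt1 had 0.224 and Tbx18 0.189, both below their trends of 0.233 and 0.207. Even so, of the 500 genes nearest in level, 62.8% had a lower coefficient than Wt1 and 61.6% a lower one than Tbx18. This share was 92.6% to 99% for the rest of the 10 genes.

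The membrane proteins came first in the values by library. Msln (ENSMUSG00000063011, chr17:25748613-25754378, minus strand) had 12, 37, 52 and 48 counts in antimiR-195 libraries, 13, 52, 37 and 28 in Upy-PEG libraries, and 24, 17, 50 and 104 in PBS libraries. In CPM these were 0.557, 1.59, 2.54 and 1.86 with antimiR-195, 0.404, 1.72, 1.47 and 1.03 with Upy-PEG, and 0.782, 0.721, 2.08 and 4.14 with PBS. Each group held low and high libraries, and the groups overlapped throughout. Upk3b (ENSMUSG00000042985, chr5:136038496-136046487, plus strand) had 0.557, 0.818, 2.30 and 1.63 CPM with antimiR-195, 0.124, 0.991, 0.913 and 0.850 with Upy-PEG, and 0.489, 0.424, 1.46 and 2.59 with PBS. The order of libraries was close to that of Msln, with PBS replicate 4 highest and Upy-PEG replicate 1 lowest for both genes. Upk1b (ENSMUSG00000049436, chr16:38773184-38800328, minus strand) had 0.232, 0.387, 1.07 and 0.697 CPM with antimiR-195, 0.466, 0.694, 0.357 and 0.296 with Upy-PEG, and 0.326, 0.254, 0.416 and 1.75 with PBS. PBS replicate 4 was again the highest. Lrrn4 (ENSMUSG00000043110, chr2:132868305-132880891, minus strand), a leucine-rich repeat membrane protein, had 4, 7, 6 and 12 counts with antimiR-195, 3, 15, 10 and 3 with Upy-PEG, and 1, 5, 11 and 36 with PBS. Its PBS libraries thus ran over a 44.0-fold range in CPM, where the count of 1 has an exact Poisson 95% interval of 0.0 to 5.6, which covers counting error only.

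**Figure D1:**
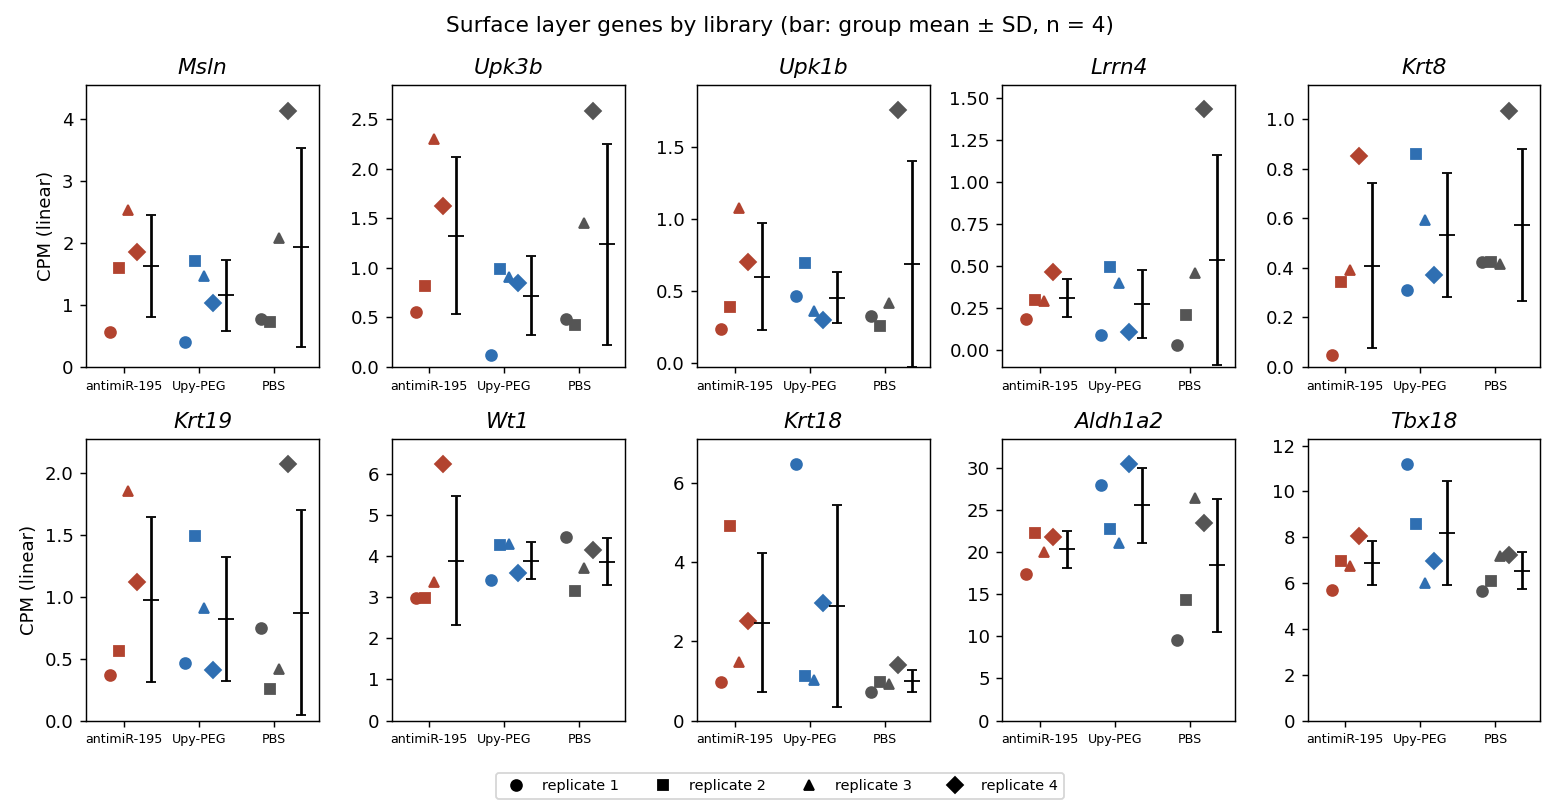
Expression of each of the 10 genes in CPM on linear axes, with groups from left to right antimiR-195, Upy-PEG and PBS, 1 point per library and bars for the mean ± SD (n = 4). PBS replicate 4 is the highest of the 12 libraries for Msln, Upk3b, Upk1b, Lrrn4, Krt8 and Krt19, and Upy-PEG replicate 1 is the highest for Krt18 and Tbx18.

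Of the keratins, Krt19 (ENSMUSG00000020911, chr11:100140810-100148665, minus strand) had 0.371, 0.559, 1.86 and 1.12 CPM with antimiR-195, 0.466, 1.49, 0.913 and 0.406 with Upy-PEG, and 0.749, 0.254, 0.416 and 2.07 with PBS. It followed the membrane proteins, with PBS replicate 4 and antimiR-195 replicate 3 on top. Krt8 (ENSMUSG00000049382, chr15:101996698-102004482, minus strand) had 1, 8, 8 and 22 counts with antimiR-195, 10, 26, 15 and 10 with Upy-PEG, and 13, 10, 10 and 26 with PBS. A processed pseudogene of Krt8 is annotated, so its low counts carry an added uncertainty. Krt18 (ENSMUSG00000023043, chr15:102028180-102032027, plus strand) had 21, 114, 30 and 65 counts with antimiR-195, 208, 34, 26 and 80 with Upy-PEG, and 22, 23, 22 and 35 with PBS. In CPM these were 0.974, 4.91, 1.47 and 2.52 with antimiR-195, 6.46, 1.12, 1.03 and 2.96 with Upy-PEG, and 0.717, 0.976, 0.916 and 1.39 with PBS. The PBS libraries lay close together, whereas 3 of the 4 antimiR-195 libraries and 2 of the 4 Upy-PEG libraries lay above all 4 of them.

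Per length, the ratio of Krt18 to Krt8 was 27.1, 18.4, 4.84 and 3.81 in antimiR-195 libraries, 26.8, 1.69, 2.24 and 10.3 in Upy-PEG libraries, and 2.18, 2.96, 2.84 and 1.74 in PBS libraries. The antimiR-195 replicate 1 value rests on 1 count of Krt8, and those of replicates 2 and 3 on 8 counts each (exact Poisson 95% interval 3.5 to 15.8). All 4 antimiR-195 libraries and 2 of the 4 Upy-PEG libraries lay above the highest PBS ratio, and no test was made on the ratio. How often the ratio of other gene pairs sets these groups apart was not counted. Neither Krt18 nor Krt8 alone had antimiR-195 libraries wholly above or below the PBS libraries. Keratin 8 and keratin 18 form filaments together, yet over the 12 libraries their log2 CPM had Pearson r = -0.03 and Spearman rho = -0.22, with permutation p = 0.93 and 0.5.

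**Figure D2:**
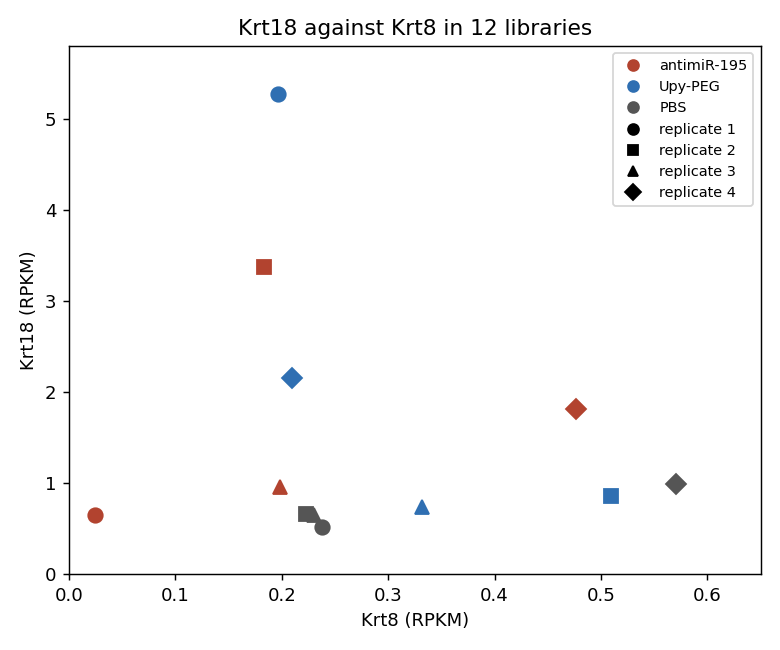
Krt18 against Krt8, both in RPKM on linear axes, with 1 point per library, colour for the group and shape for the replicate. Upy-PEG replicate 1 and antimiR-195 replicate 2 are high in Krt18 at 5.27 and 3.37 RPKM with Krt8 at 0.196 and 0.184 RPKM, while PBS replicate 4 is highest in Krt8 at 0.571 RPKM with Krt18 at 0.990 RPKM; PBS replicates 2 and 3 nearly coincide.

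Wt1 (ENSMUSG00000016458, chr2:105126529-105173616, plus strand), a zinc finger factor of the embryonic epicardium, had 2.97, 2.97, 3.37 and 6.23 CPM with antimiR-195, 3.42, 4.26, 4.29 and 3.58 with Upy-PEG, and 4.46, 3.14, 3.71 and 4.14 with PBS. The mean was 3.88 ± 1.57 CPM with antimiR-195, 3.89 ± 0.452 CPM with Upy-PEG and 3.86 ± 0.574 CPM with PBS (SD, n = 4 each), with antimiR-195 replicate 4 above all others. Tbx18 (ENSMUSG00000032419, chr9:87702800-87731260, minus strand), a T-box factor also present in pericytes and smooth muscle, had 5.71, 6.97, 6.75 and 8.05 CPM with antimiR-195, 11.2, 8.59, 5.99 and 6.94 with Upy-PEG, and 5.64, 6.11, 7.20 and 7.25 with PBS. Its values were narrow apart from the first Upy-PEG library. Aldh1a2 (ENSMUSG00000013584, chr9:71215789-71296243, plus strand), the main retinoic acid enzyme of the epicardium, had 17.4, 22.2, 20.04 and 21.8 CPM with antimiR-195, 28.0, 22.7, 21.03 and 30.4 with Upy-PEG, and 9.51, 14.3, 26.4 and 23.4 with PBS. The PBS libraries were the most spread, at 18.4 ± 7.86 CPM, against 20.4 ± 2.21 with antimiR-195 and 25.5 ± 4.40 with Upy-PEG (SD, n = 4 each).

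A surface index was formed for each library as the mean, over the 10 genes, of the deviation of log2 CPM (prior count 2) from the mean of the 12 libraries. It was -0.753, 0.063, 0.401 and 0.536 in antimiR-195 libraries, -0.299, 0.355, 0.026 and -0.155 in Upy-PEG libraries, and -0.595, -0.581, 0.051 and 0.951 in PBS libraries. Every group held libraries above and below 0, and the group means differed by less than the spread within groups, at 0.062 ± 0.578 with antimiR-195, -0.018 ± 0.282 with Upy-PEG and -0.044 ± 0.728 in PBS libraries (SD, n = 4 each). On this index PBS replicate 4 was highest and antimiR-195 replicate 1 lowest. Over Msln, Upk3b, Upk1b, Lrrn4, Wt1 and Krt19 alone, the index was -0.703, -0.118, 0.735 and 0.608 with antimiR-195, -0.934, 0.465, 0.118 and -0.450 with Upy-PEG, and -0.560, -0.723, 0.162 and 1.40 with PBS. Upy-PEG replicate 1 was the lowest library on these 6 genes and stood at -0.299 with all 10, and it was the highest library for Krt18 and Tbx18. The 10 genes summed to 29.0 to 45.2 CPM with antimiR-195, 37.0 to 50.9 with Upy-PEG and 23.1 to 49.2 with PBS, sums in which Aldh1a2 holds the largest share.

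**Figure D3:**
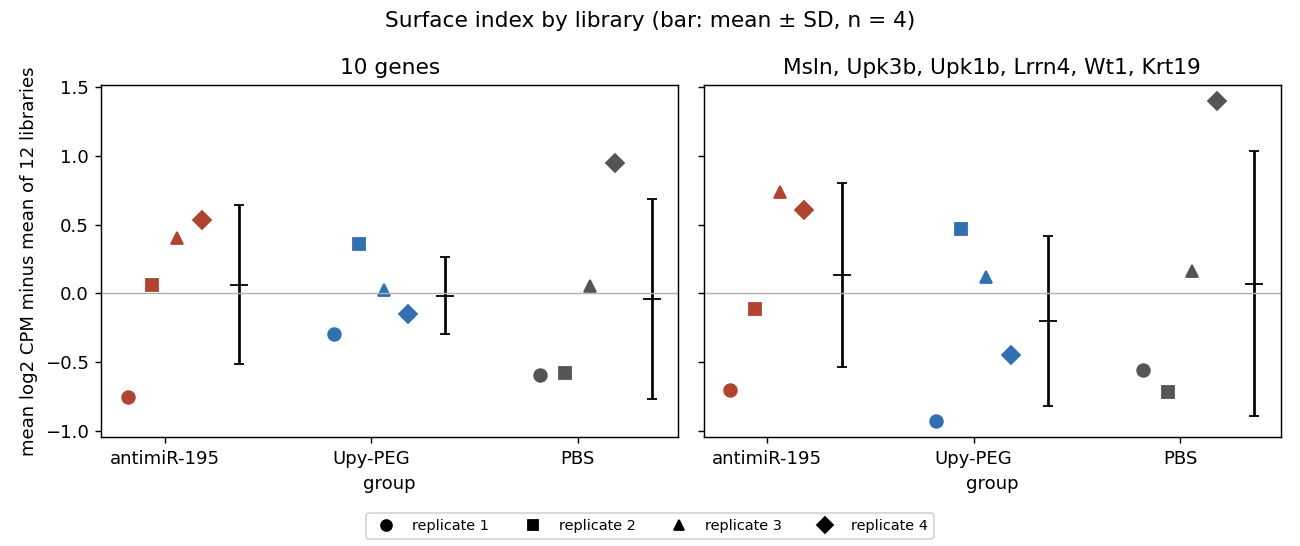
Surface index of each library in log2 units, over the 10 genes and over 6 of them, with groups from left to right antimiR-195, Upy-PEG and PBS. The 10-gene index runs between -0.753 and 0.951 and the 3 groups overlap; Upy-PEG replicate 1 stands lower with 6 genes, at -0.934, than with 10, at -0.299.

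Whether the 10 genes varied together was asked for all 45 pairs over the 12 libraries, with 100000 permutations and Benjamini-Hochberg adjustment over the 45 pairs. By Pearson's r, 6 pairs passed 0.05, and all 6 lay among Msln, Upk3b, Upk1b, Lrrn4 and Krt19. The share of pairs that would pass among all genes tested, or among genes of like level, was not computed. The count of 6 in 45 therefore cannot be read as particular to these genes. Msln and Upk3b had r = 0.94 and rho = 0.95, with a permutation p of 1e-05, the smallest that these permutations can give, adjusted p = 0.00045 for both, and r = 0.91 without the 2 libraries farthest from the median of Msln. Upk1b and Krt19 had r = 0.88 and rho = 0.86 (permutation test, adjusted p = 0.0013 and 0.015), and r = 0.78 without the 2 libraries farthest from the median of Upk1b. Msln and Lrrn4 had r = 0.83 and rho = 0.78 (permutation test, adjusted p = 0.015 and 0.042), and Msln and Upk1b r = 0.78 and rho = 0.76 (permutation test, adjusted p = 0.026 and 0.048). Msln and Krt19 had r = 0.74 and rho = 0.73 (permutation test, adjusted p = 0.047 and 0.048), and Upk3b and Lrrn4 r = 0.74 and rho = 0.78 (permutation test, adjusted p = 0.047 and 0.042). Without the 2 farthest libraries these 4 pairs had r of 0.69, 0.84, 0.67 and 0.61, in the order given. Without PBS replicate 4, which is the highest library for each of these genes, 2 pairs passed, and without antimiR-195 replicates 2 and 3 together 3 passed. Taken as deviations from group means, 11 pairs passed. These deviations were permuted across all 12 libraries as if independent, though taking out group means ties them together. Their p may therefore be too small, and 11 is not comparable with 6. The r of these deviations was 0.60 to 0.95 in the 15 pairs among Msln, Upk3b, Upk1b, Lrrn4, Krt8 and Krt19. The genes of a pair share their libraries and depth, and most have few counts.

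The genes were then grouped by these correlations, as a description with no test. Msln, Upk3b, Upk1b, Lrrn4, Krt8 and Krt19 had r of 0.48 to 0.94 in their 15 pairs, with a median of 0.68, and 0.36 to 0.93 without PBS replicate 4. Krt18, Aldh1a2 and Tbx18 had r of 0.59 to 0.68 in their 3 pairs, and 0.41 to 0.64 without Upy-PEG replicate 1. By Pearson's r none of these 3 pairs passed by permutation, the lowest adjusted p being 0.07 for Krt18 with Tbx18, and by Spearman's rho Aldh1a2 with Tbx18 had 0.73 (permutation test, adjusted p = 0.048). The 18 pairs across these groupings had r of -0.29 to 0.39, with a median of 0.09. Without Upy-PEG replicate 1 these 18 ran between 0.02 and 0.63, with a median of 0.38, and so overlapped the 3 pairs of Krt18, Aldh1a2 and Tbx18, and the separation of the groupings rests in part on that library. Wt1 had r of 0.27 to 0.69 with the first 6 genes and -0.14 to 0.16 with the other 3.

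**Figure D4:**
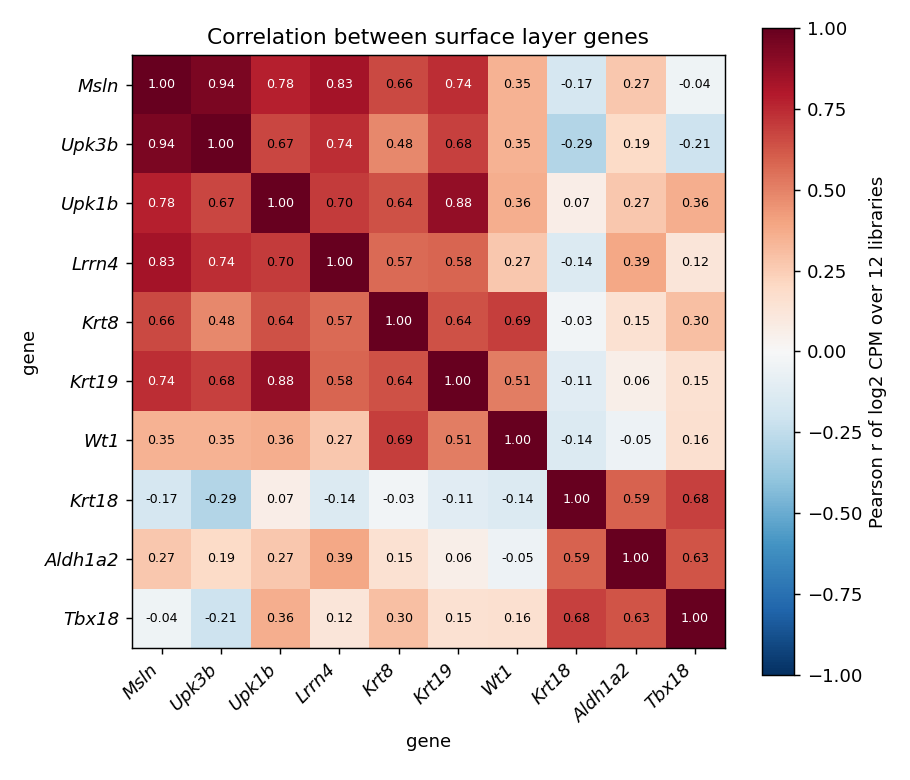
Pearson r of log2 CPM over 12 libraries for each pair of the 10 genes, on a colour scale from -1 to 1. Msln, Upk3b, Upk1b, Lrrn4, Krt8 and Krt19 form the block of high values, up to 0.94 for Msln with Upk3b, and Krt18, Aldh1a2 and Tbx18 a smaller one with r of 0.59 to 0.68.

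Outside the 10 genes, the 8 whose log2 CPM was most like the index were, in order of Pearson r over 12 libraries, Krt7 (0.87), Mutyh (0.81), H2-Q10 (0.81), Anxa8 (0.81), Dmkn (0.81), Lsr (0.80), Sirpb1b (0.80) and Slc39a8 (0.78). Krt7 is a simple epithelial keratin, Dmkn an epithelial secreted protein, Lsr a protein of tricellular epithelial junctions and Anxa8 an annexin of epithelia. Mutyh, a DNA repair gene, H2-Q10, Sirpb1b and Slc39a8 are, like Lsr, in none of the marker lists. Krt7, Anxa8 and Dmkn are in the list of 16 further surface layer genes, and the rest of that list is not among these 8. Without the 2 libraries at the extremes of the index, r over these 8 was 0.55 to 0.76. Most of the 8 had few counts in a library: 0 to 34 in Krt7, 1 to 20 in Sirpb1b, 2 to 46 in Dmkn, 5 to 25 in H2-Q10 and 8 to 49 in Anxa8. Slc39a8 had 19 to 75, Mutyh 35 to 69 and Lsr 37 to 88. These 8 genes were picked as the highest among all genes tested, so no p is given. For single genes, the most alike was Thbs1, the matricellular protein thrombospondin 1, for Tbx18 (r = 0.99, and 0.96 without the 2 farthest libraries). It was Ccl12, a monocyte chemokine, for Krt18 (r = 0.92, and 0.87 without them), Ptx3, an acute-phase pentraxin, for Aldh1a2 (r = 0.90, and 0.79), Mutyh, a DNA repair glycosylase, for Msln (r = 0.92, and 0.82) and Cmtr2, an mRNA cap methyltransferase, for Wt1 (r = 0.87, and 0.63).

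The first comparison asks what the hydrogel itself did to these genes, Upy-PEG against PBS. None of the 10 passed an adjusted p of 0.05 in edgeR's quasi-likelihood test, in which 0.0% of the 14770 genes were called. DESeq2 called 519 genes and limma voom 918, none of the 10 among them, and DESeq2 gave Lrrn4 no adjusted p. No gene of the 10 had Upy-PEG libraries wholly above or wholly below the PBS libraries, where 5.91% of all genes tested were wholly above and 3.77% wholly below. Krt18 had the largest fold, at 2.92-fold of PBS, or 1.54 ± 0.60 on the log2 scale (SE; adjusted p = 0.269 in edgeR). Its group mean was 2.89 ± 2.54 CPM with Upy-PEG and 1.0 ± 0.285 CPM with PBS (SD, n = 4 each), and it was the only one of the 10 at an unadjusted p under 0.05 and higher, as were 9.33% of all genes, and none of the 10 was at such a p and lower, as were 3.83%. Without Upy-PEG replicate 1 its log2 fold change was 0.78. The log2 fold change of Aldh1a2 was 0.47 ± 0.25 (adjusted p = 0.455 in edgeR) and that of Tbx18 0.33 ± 0.19 (adjusted p = 0.508 in edgeR).

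The membrane protein genes had negative values with wide errors in the same comparison. Lrrn4 had -0.94 ± 0.77, Upk3b -0.79 ± 0.64, Msln -0.74 ± 0.58 and Upk1b -0.58 ± 0.61 on the log2 scale (SE). Without PBS replicate 4 these were 0.27 for Lrrn4, -0.14 for Upk3b, -0.05 for Msln and 0.45 for Upk1b. Krt8 at -0.11 ± 0.54, Krt19 at -0.10 ± 0.63 and Wt1 at 0.01 ± 0.23 lay near 0, and Krt19 was 0.75 without PBS replicate 4. Over the 10 genes the median log2 fold change was -0.10, with 4 genes higher and 6 lower, and over all genes tested it was -0.03. With 1 library left out this median ran between -0.50, without Upy-PEG replicate 2, and 0.35, without PBS replicate 4. The sums of markers of other cells stood as follows. The 6 macrophage genes summed to 832 to 1299 CPM with Upy-PEG and 423 to 659 CPM with PBS, and the 8 fibroblast genes to 3350 to 5948 CPM with Upy-PEG and 3032 to 4144 CPM with PBS. None of these 14 genes was at or near 0 counts, and their part in the Krt18, Aldh1a2 and Tbx18 values was not tested. Upy-PEG replicate 1, the highest library for Krt18 and Tbx18, had the highest fibroblast sum, at 5948 CPM, and the lowest ventricular cardiomyocyte sum, at 51180 CPM.

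AntimiR-195 in the hydrogel was then set against the hydrogel alone, which bears on the drug. None of the 10 genes was called, with 0.0% of all genes called (13 genes with DESeq2, none of the 10 among them), and none had groups apart, where 1.94% of all genes were wholly above and 2.46% wholly below. Here too DESeq2 gave Lrrn4 no adjusted p. No gene of the 10 reached an unadjusted p under 0.05, against 13.1% of all genes, 6.67% higher and 6.4% lower. Upk3b had the largest difference, 1.32 ± 0.792 CPM with antimiR-195 and 0.719 ± 0.401 CPM with Upy-PEG (SD, n = 4 each), or 0.89 ± 0.65 on the log2 scale (SE; adjusted p = 0.509 in edgeR). Msln stood at 0.51 ± 0.59 and Upk1b at 0.38 ± 0.62 on the same scale. Aldh1a2 stood at -0.33 ± 0.25, Tbx18 at -0.25 ± 0.19 and Krt18 at -0.23 ± 0.56. The 95% intervals allow differences of -0.49 to 0.505 in Wt1 and -1.58 to 1.995 in Lrrn4, so a log2 difference of 1 in Lrrn4 was not detectable at this depth and spread. The median of the 10 genes was 0.11, with 6 higher and 4 lower, beside -0.01 over all genes, and with 1 library left out it ran between -0.15, without antimiR-195 replicate 4, and 0.35, without Upy-PEG replicate 2.

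AntimiR-195 in the hydrogel against PBS shares its PBS libraries with the first comparison and its antimiR-195 libraries with the second, so the values below stand beside those and do not add to them. None of the 10 genes was called by edgeR, with 0.0% of all genes called. None had groups apart, where 2.74% of all genes were wholly above and 3.32% wholly below. DESeq2 called 51 genes, none of the 10 among them, but gave an adjusted p to only 10903 genes in this comparison. At least Wt1 and Msln had none, so DESeq2 could not call them. DESeq2 leaves out genes of low mean count. Krt18, Upk3b, Krt19, Upk1b, Krt8 and Lrrn4 lay below Wt1 in mean CPM, Krt18 at 2.12 against 3.88. A filter that left out Wt1 would leave them out too, so the absence of DESeq2 calls says little about these genes. Krt18 had 2.46 ± 1.75 CPM with antimiR-195 and 1.0 ± 0.285 CPM with PBS (SD, n = 4 each), or 1.31 ± 0.61 on the log2 scale (SE; adjusted p = 0.301 in edgeR). It was the 1 gene of the 10 at an unadjusted p under 0.05 and higher, as were 8.65% of all genes, and none was at such a p and lower, as were 7.89%. Without antimiR-195 replicate 2 its value was 0.74. The other 9 genes lay between -0.73 in Lrrn4 and 0.15 in Krt19. Without PBS replicate 4, Krt19 stood at 0.999, Upk1b at 0.83, Upk3b at 0.75, Lrrn4 at 0.48 and Msln at 0.46. The median of the 10 was 0.04, with 6 higher and 4 lower, and that of all genes was 0.01. It was 0.47 without PBS replicate 4 and -0.31 without antimiR-195 replicate 3. The macrophage genes summed to 588 to 1084 CPM with antimiR-195, against 423 to 659 CPM with PBS, and their part in the Krt18 value was not tested.

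**Figure D5:**
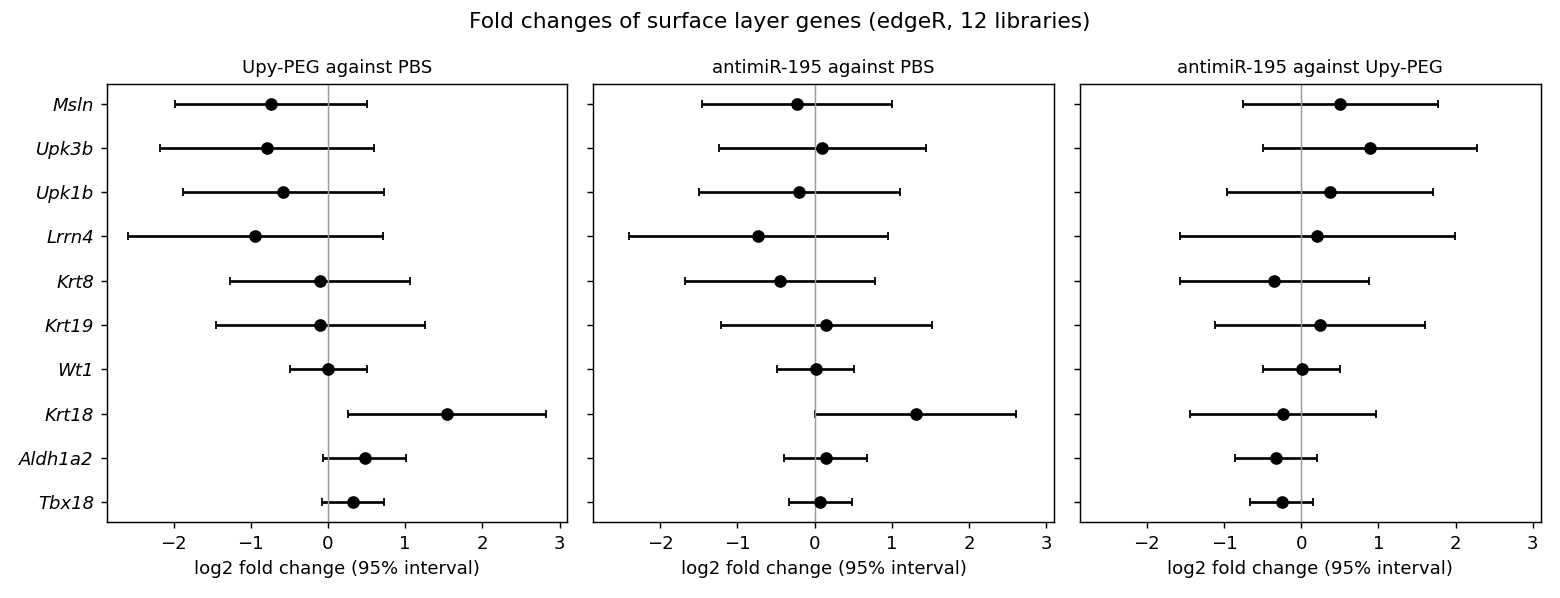
Log2 fold changes with 95% intervals (edgeR, 12 libraries) for the 10 genes in 3 panels, Upy-PEG against PBS, antimiR-195 against PBS and antimiR-195 against Upy-PEG. Before any adjustment, all intervals cross 0 apart from those of Krt18 in Upy-PEG against PBS, at 0.26 to 2.83, and in antimiR-195 against PBS, at 0.01 to 2.61.

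Around Aldh1a2, a list of 16 genes of retinoic acid handling had 13 tested. None was called by edgeR in any comparison, where 0.0% of all genes were called. Calls under other settings are not given for this list and those below. Their median log2 fold change was -0.07 for Upy-PEG against PBS, -0.08 for antimiR-195 against Upy-PEG and -0.17 for antimiR-195 against PBS. The lowest p values belonged to Rarb, a retinoic acid receptor that is itself a target of the hormone, at -0.37 ± 0.12 (adjusted p = 0.179 in edgeR) and to Cyp26b1, which degrades retinoic acid, at -1.67 ± 0.59 (adjusted p = 0.222 in edgeR), both for Upy-PEG against PBS. Cyp26b1 averaged 7.30 ± 2.09 CPM with Upy-PEG and 23.2 ± 20.8 CPM with PBS, where it ran between 6.78 and 52.9 CPM in single libraries. The receptor gene Rara stood at -0.30 ± 0.11 (adjusted p = 0.364 in edgeR) and Rbp4, a retinol carrier, at -0.85 ± 0.48 for antimiR-195 against Upy-PEG. Rxra, a partner of the retinoic acid receptors, stood at -0.33 ± 0.12 for antimiR-195 against PBS (adjusted p = 0.253 in edgeR).

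Of 8 genes of the epithelial to mesenchymal transition, the process by which surface cells leave the sheet, all were tested. None was called by edgeR, with 0.0% of all genes called. Snai1, a repressor of epithelial genes, averaged 9.79 ± 1.66 CPM with Upy-PEG and 4.996 ± 1.18 CPM with PBS (SD, n = 4 each). Its libraries ran between 8.29 and 12.1 CPM with Upy-PEG and between 3.78 and 6.05 CPM with PBS, so that the Upy-PEG libraries lay wholly above, as in 5.91% of all genes tested, and its log2 fold change was 0.97 ± 0.22 (SE; adjusted p = 0.0971 in edgeR). With antimiR-195 it averaged 5.25 ± 1.42 CPM, and against Upy-PEG its log2 fold change was -0.90 ± 0.22 (SE; adjusted p = 0.364 in edgeR). Vim, the intermediate filament gene of mesenchymal cells, stood at 0.68 ± 0.20 for Upy-PEG against PBS (adjusted p = 0.148 in edgeR) and 0.41 ± 0.20 for antimiR-195 against PBS. Zeb2 stood at -0.31 ± 0.16 for antimiR-195 against Upy-PEG and Zeb1 at -0.21 ± 0.15 for antimiR-195 against PBS. The median of the 8 was 0.26, -0.23 and 0.06 for Upy-PEG against PBS, antimiR-195 against Upy-PEG and antimiR-195 against PBS. Fibroblasts and macrophages also express several of these genes, and the part of their sums, given above, in these values was not tested.

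A further 16 genes of the surface layer, 15 of them in the table and 13 tested, were not called by edgeR either, with 0.0% of all genes called. Their medians were -0.21, 0.07 and 0.01 for the same 3 comparisons. Scx, a transcription factor of tendon and epicardial derivatives, averaged 7.21 ± 1.46 CPM with antimiR-195, 6.36 ± 0.599 CPM with Upy-PEG and 4.66 ± 0.894 CPM with PBS (SD, n = 4 each). Its log2 fold change was 0.63 ± 0.17 for antimiR-195 against PBS and 0.45 ± 0.17 for Upy-PEG against PBS (adjusted p = 0.253 and 0.275 in edgeR). Pdpn, podoplanin, stood at 0.54 ± 0.22 for Upy-PEG against PBS (adjusted p = 0.288 in edgeR). Slpi, a secreted protease inhibitor, stood at -1.36 ± 0.60 for antimiR-195 against PBS, with 1 PBS library at 6.17 CPM. For antimiR-195 against Upy-PEG, Bnc2 stood at -1.01 ± 0.51 and Anxa8 at -0.60 ± 0.41.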

How the data were processed

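Per the submitters' processing notes, the authors aligned reads to GRCm38 with STAR and made the deposited count of each gene with HTSeq, and used DESeq; versions, the annotation and the strand setting of the counting are not given in the sources used here. Per the labels, libraries came from a stranded polyadenylated RNA kit. The deposited RPKM of the authors imply 1 length for each of 23961 genes. HTSeq reads on no gene (6.25% to 8.77% of uniquely aligned reads) were left out. Symbols and positions came from GENCODE release 21 for the mouse, in which 36345 of the 38293 gene IDs counted were found. Muc16 is not in that match. Genes annotated on the opposite strand overlap Aldh1a2, Tbx18 and Krt8.

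Counts of all 12 libraries were tested with edgeR 4.0.16 in R 4.3.3 (filterByExpr by group, TMM, quasi-likelihood F test, 9 residual degrees of freedom, Benjamini-Hochberg over 14770 genes, threshold 0.05). The SE of a log2 fold change is its size over the root of F, and its 95% interval uses the 13.7 total degrees of freedom of the test. CPM carry TMM factors, and log2 CPM a prior count of 2. The fit was tested on simulated data. Comparisons between genes used RPKM. Other settings were RLE factors, library size alone, DESeq2 1.42.0, limma 3.58.1 (voom with sample weights, and log2(RPKM + 0.1)), no filter, a mean of 1 CPM or more, the 8 libraries compared, a gene length slope covariate, and libraries left out. Pair correlations with libraries left out were added after the data were seen.

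The members and lists were chosen with earlier results of these data known. All 10 genes are named, with the 8 genes most like the index and the 2 lowest p per comparison of the surface, retinoic acid and transition lists, of which 1 is not reported here. The genes most like single members, and the 6-gene and 3-gene groupings, were chosen after their values were seen. No batch or pairing is in the labels; replicates are numbered by accession order.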

Additional observations from a re-analysis of the deposited data

Results flagged for a closer look

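In groups of 4, a library was picked out where its gap to the nearest other library, divided by the range of the group, was above Dixon's critical value of 0.829. This was asked of 36 groups (the 10 genes and 2 forms of the index in 3 groups) and picked out 4. A chance rate of about 1 in 20 holds for independent, normal values. The gene values here are CPM of mostly low counts, several genes vary together, and both forms of the index are built from them. The 4 therefore cannot be set against that rate. Wt1 was 6.23 CPM in antimiR-195 replicate 4, with the other 3 libraries at 2.97 to 3.37 CPM (gap over range 0.876). Upk3b was 0.124 CPM in Upy-PEG replicate 1, with the others at 0.850 to 0.991 CPM (0.837). Upk1b was 1.75 CPM in PBS replicate 4, with the others at 0.254 to 0.416 CPM (0.892). Krt8 was 1.03 CPM in PBS replicate 4, with the others at 0.416 to 0.424 CPM (0.987).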

How the results depend on the processing

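No paired analysis was possible because the labels give no replicate numbers. None of the 10 genes was called under any setting run, and the lowest adjusted p of any of them was 0.112, for Krt18. Of 285 values of single genes under the 10 other settings, 262 kept their sign and 23 turned; of 360 with 1 library left out, 39 turned. Genes called over the whole table for Upy-PEG against PBS, 0 in the edgeR test with 1944 at an unadjusted p under 0.05, were 69 with no filter, 519 with DESeq2, 918 with limma voom, 172 with the 8 libraries compared, 332 with the length slope covariate, 349 without antimiR-195 replicates 2 and 3 together, and 0 to 150 with 1 library left out (150 without antimiR-195 replicate 2, 46 without Upy-PEG replicate 3, 0 otherwise). For antimiR-195 against Upy-PEG they were 0 (1930 unadjusted) and 13 with DESeq2. For antimiR-195 against PBS they were 0 (2444 unadjusted), 1 with no filter, 51 with DESeq2 and 1 with voom. The index of Upy-PEG replicate 1 was -0.93 with 6 genes. The pairs that passed were 11 as deviations from group means, 4 with library size alone, 9 by Spearman's rho, 3 without antimiR-195 replicates 2 and 3 together, and 2 to 8 with PBS replicate 4 or Upy-PEG replicate 1 left out, against 6. The p behind the 11 may be too small, as said above.

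Log2 fold changes that turned, for Upy-PEG against PBS, were Krt8 (voom 0.088, RPKM 0.001) and Krt19 (voom 0.40, RPKM 0.16). For antimiR-195 against Upy-PEG they were Wt1 (library size -0.13, no filter -0.009, voom -0.089, RPKM -0.18), Msln (voom -0.15), Upk1b (voom -0.10) and Krt19 (voom -0.29, slope -0.033, without antimiR-195 replicates 2 and 3 -0.10). For antimiR-195 against PBS they were Wt1 (library size -0.028, voom -0.013, RPKM -0.082), Upk3b (voom -0.24, slope -0.14, without replicates 2 and 3 -0.14), Krt19 (slope -0.16, without them -0.19), Aldh1a2 (voom -0.064) and Tbx18 (voom -0.041). The cause was not tested.

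With 1 library left out, values that turned for Upy-PEG against PBS ran between -0.081 and 0.084 in Wt1, -0.85 and 0.45 in Upk1b, -1.42 and 0.27 in Lrrn4, -0.44 and 0.34 in Krt8, and -0.56 and 0.75 in Krt19. For antimiR-195 against Upy-PEG they ran between -0.32 and 0.11 in Wt1, -0.047 and 0.65 in Upk1b, -0.10 and 0.69 in Lrrn4, -0.82 and 0.54 in Krt18, and -0.25 and 0.72 in Krt19. For antimiR-195 against PBS they ran between -0.32 and 0.12 in Wt1, -0.52 and 0.46 in Msln, -0.29 and 0.75 in Upk3b, -0.62 and 0.83 in Upk1b, -1.15 and 0.48 in Lrrn4, -0.34 and 0.999 in Krt19, -0.072 and 0.37 in Aldh1a2, and -0.016 and 0.15 in Tbx18. A mean CPM of at least 1 left Krt19, Krt8, Lrrn4 and Upk1b without a value, and the fits of 8 libraries left Krt8 and Lrrn4 without one for antimiR-195 against Upy-PEG and Lrrn4 for antimiR-195 against PBS. DESeq2 gave no adjusted p to Lrrn4 for Upy-PEG against PBS and for antimiR-195 against Upy-PEG. For antimiR-195 against PBS it gave none to at least Wt1 and Msln. Krt18, Upk3b, Krt19, Upk1b, Krt8 and Lrrn4 lay below Wt1 in mean CPM, and a filter on mean count that left out Wt1 would leave them out too. Genes without a value or an adjusted p could not be called in those settings. Lrrn4, Krt8 and Upk1b have 1 to 44 counts in a library, so counting error limits their precision.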

Other observations

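Fat is the other tissue that lies on the outer face of the heart. Of 9 adipocyte genes listed, 3 were tested, Cidea, Car3 and Cfd, while Lep and Ucp1 had no more than 3 counts and Adipoq 2 to 19 counts in a library. Cidea, a lipid droplet protein, averaged 31.3 ± 6.35 CPM with antimiR-195, 25.3 ± 3.40 CPM with Upy-PEG and 24.5 ± 2.87 CPM with PBS (SD, n = 4 each). Car3, a carbonic anhydrase of fat and muscle, averaged 0.672 ± 0.0937 CPM with Upy-PEG and 1.71 ± 0.487 CPM with PBS (SD, n = 4 each), and stood at -1.34 ± 0.38 for Upy-PEG against PBS on the log2 scale (SE; adjusted p = 0.132 in edgeR), and Cfd, adipsin, at -1.31 ± 0.47 (SE; adjusted p = 0.227 in edgeR). PBS replicate 4, the highest library for Msln, Upk3b, Upk1b, Lrrn4, Krt8 and Krt19, also had the highest sum of the 8 genes of other epithelium, 0.995 CPM. All 8 were too low to be tested, and the sum was 0.831 CPM in antimiR-195 replicate 3.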
